A study of Mus musculus with 65 samples.

Results

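HSD2 neurons are brainstem cells that make 11-beta-hydroxysteroid dehydrogenase type 2, the enzyme that lets a cell respond to aldosterone. Here they were divided by whether they held the transcript of Dbh, dopamine beta-hydroxylase. Dbh was above 0 in 31 of the 65 cells sequenced and was 0 in the other 34. Dbh itself chose the cells, so its values are a description and support no difference.

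All 65 cells were taken from the NTS, the nucleus of the solitary tract, in male mice of mixed strain that carried Hsd11b2-Cre and the Ai9 reporter, in which Cre switches on the red protein tdTomato. The chow cells (33) came from mice fed standard chow and the low-sodium cells (32) from mice fed a low-sodium diet, and no other allele or agent is named. Red cells were picked by hand from dissociated tissue and made into polyA libraries cell by cell with Smart-Seq2, a full-length method without molecular identifiers in the sources used here. The Cre driver marks any cell in which Hsd11b2 was active at some time, and the extraction protocol names Arc-ME although the tissue label is the NTS. Neither the age of the mice nor the animal of a cell is given, so each diet is 1 sample, cells are not replicates, and no test was run. Errors are the standard deviation (SD) over cells.

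Catecholamines are made in steps. Tyrosine hydroxylase (Th) makes DOPA from tyrosine, aromatic amino acid decarboxylase (Ddc) turns DOPA into dopamine, and Dbh, inside the vesicle, turns dopamine into noradrenaline. The vesicle transporter VMAT2 (Slc18a2) loads the amine, and Gch1 starts the synthesis of tetrahydrobiopterin, the cofactor of Th. The NTS also holds the A2 noradrenergic neurons, which have Th and Dbh and lie close to the HSD2 neurons.

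The start regions of the genes that define this pathway are shown because their transcripts were found together or apart in single cells. Each is the RefSeq window of GRCm38.p6 from 250 bases before to 50 bases after a transcription start, 5′ to 3′ on the gene's own strand. Capitals mark the homeodomain core ATTA or TAAT and the cyclic AMP response element TGACGTCA, searched on both strands. Where ATTA and TAAT overlapped, their letters run together as 1 stretch.
Dbh, chr2:27165257-27165556, plus strand: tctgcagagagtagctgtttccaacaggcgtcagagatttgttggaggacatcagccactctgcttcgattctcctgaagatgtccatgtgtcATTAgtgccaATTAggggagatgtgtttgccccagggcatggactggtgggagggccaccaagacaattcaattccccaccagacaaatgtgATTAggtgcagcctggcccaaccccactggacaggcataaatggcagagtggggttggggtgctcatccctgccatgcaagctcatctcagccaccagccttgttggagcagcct
Th, chr7:142899946-142900245, minus strand: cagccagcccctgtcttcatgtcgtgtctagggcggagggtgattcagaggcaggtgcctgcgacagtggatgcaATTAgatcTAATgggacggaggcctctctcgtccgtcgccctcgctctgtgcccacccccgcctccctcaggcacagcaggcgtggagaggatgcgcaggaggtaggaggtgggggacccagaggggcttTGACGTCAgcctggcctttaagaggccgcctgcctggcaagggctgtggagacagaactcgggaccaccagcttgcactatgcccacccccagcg
Ddc, chr11:11898095-11898394, minus strand: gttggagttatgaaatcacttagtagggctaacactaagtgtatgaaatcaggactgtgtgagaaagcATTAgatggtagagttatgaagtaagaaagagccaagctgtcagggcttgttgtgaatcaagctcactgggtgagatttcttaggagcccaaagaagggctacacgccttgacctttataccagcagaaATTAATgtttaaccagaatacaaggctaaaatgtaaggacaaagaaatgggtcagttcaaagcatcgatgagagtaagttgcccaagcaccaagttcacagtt
Slc18a2, chr19:59260628-59260927, plus strand: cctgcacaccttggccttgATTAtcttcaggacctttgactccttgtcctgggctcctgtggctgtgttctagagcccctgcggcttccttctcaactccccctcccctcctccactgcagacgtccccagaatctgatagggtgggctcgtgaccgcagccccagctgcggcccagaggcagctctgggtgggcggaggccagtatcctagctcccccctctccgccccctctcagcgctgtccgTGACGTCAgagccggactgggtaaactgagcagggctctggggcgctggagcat

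The Dbh window held 3 homeodomain cores, the Th window 2, this Ddc window 3 and the Slc18a2 window 1. A second RefSeq start of Ddc, at chr11:11890359-11890658, held 2. At least 1 such core was found in 58.0% of 32851 windows of the same length and at least 3 in 20.0%, so the letters are common. TGACGTCA is rarer, in 1.79% of windows, and was found in Th, at position -45 from the start, and in Slc18a2, at position -4. It was not among the letters of the Dbh window or of either Ddc window. A match of letters shows no binding.

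Dbh (chr2:27165233-27183200, plus strand, GENCODE on GRCm38) was found in similar shares of cells in both diets. It was above 0 in 16 of 33 chow cells (48.5%, exact Clopper-Pearson 95% interval 30.8 to 66.5). In the low-sodium group 15 of 32 cells held it (46.9%, 29.1 to 65.3), and 31 of 65 overall (47.7%, 35.1 to 60.5). These intervals, as all below, cover counting error only. Levels are log2(CPM + 1), where CPM are the deposited scaled counts. In chow cells with Dbh its level ran from 4.82 through a median of 8.89 to 10.88, with a mean of 8.48 ± 1.81 (n = 16). In low-sodium cells with Dbh it ran from 0.90 through 8.08 to 11.41, with a mean of 7.47 ± 3.01 (n = 15). The ranges overlap, and the 3 lowest values are all low-sodium cells.

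Few cells lay near the edge of the split. Dbh exceeded 10 CPM in 30 of the 31 cells, 100 CPM in 23 and 1000 CPM in 8. Just inside the limit were 3 low-sodium cells, with 1 read (0.864 CPM), 3 reads (12.8 CPM) and 2 reads (29.9 CPM), and the 34 cells outside were at 0. In those 34 cells a level of 3 reads corresponds to 0.481 to 22.1 CPM (median 4.39). Of the 31 cells with Dbh, 28 lay above the highest of these. The 28 include the cell with 2 reads, in which a level of 3 reads corresponds to 44.8 CPM. A level of 3 reads concerns the depth of reading only. Whether transcript was lost before sequencing in cells at 0 was not tested.

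Median depth was close in the kinds of cell over both diets and differed in opposite directions within them. Cells with Dbh had 50078 to 4186258 reads over the listed genes (median 651333) and 4700 to 11467 detected genes (median 8017). Cells without had 117524 to 5319462 reads (median 657916) and 5975 to 11193 detected genes (median 8291.5). In chow the median was 393860 reads with Dbh and 669713 without, whereas in low sodium it was 697841 with and 471114 without. Of the 7 cells with few genes, those below the 10th percentile of detected genes, 6 held Dbh. CPM summed over the listed genes exceeded 1200000 in 9 cells, all low sodium, 5 with Dbh and 4 without. Across the 31 cells, the Dbh level had a Pearson r of 0.03 with the log10 of the reads and of 0.05 with the number of detected genes. Thinned to 50000 reads per cell, 27 cells still held Dbh.

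**Figure D1:**
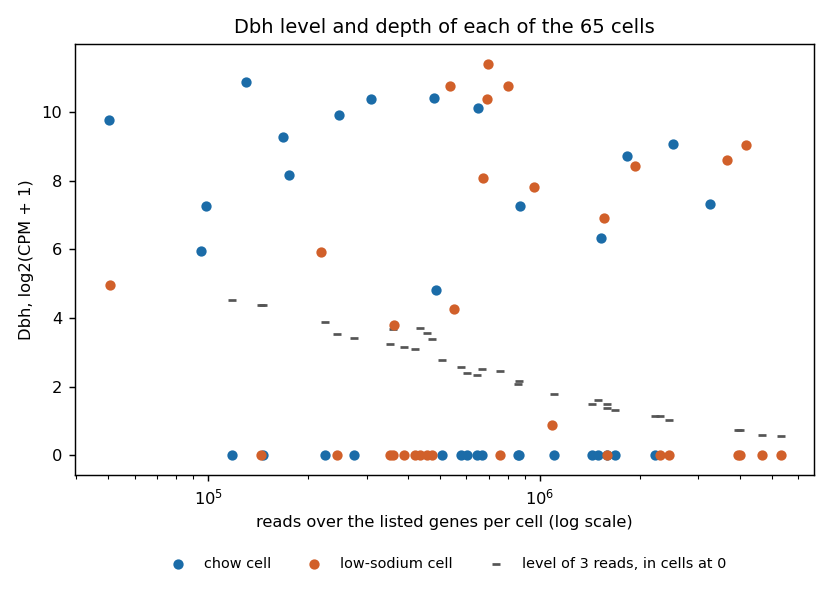
Dbh level, log2(CPM + 1), of each of the 65 cells (vertical) against its reads over the listed genes (horizontal, log scale), chow in blue and low sodium in orange, with a dash at the level of 3 reads in each cell without Dbh. Most of the 31 cells with Dbh lie above all dashes, at any depth, and 3 low-sodium cells lie near or under them.

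Ddc (chr11:11814101-11898144, minus strand), the step before Dbh, was abundant in every cell and hardly separated the kinds. In chow it ran from 5.06 through 9.49 to 10.18 with Dbh and from 7.05 through 9.17 to 10.01 without. With low sodium the range was 6.20 through 8.80 to 10.45 with Dbh and from 7.43 through 8.76 to 9.91 without. The groups overlap almost wholly. The difference of means, cells with Dbh minus cells without, was 0.27 in chow and -0.04 in low sodium, under the SD over cells in each of the 4 groups (0.53 to 1.24). Among the 31 cells with Dbh, the Dbh and Ddc levels had a Pearson r of 0.41 and a Spearman rho of 0.56, and r was 0.45 without the 2 cells farthest from the median Dbh level. Within chow r was 0.43 (n = 16) and within low sodium 0.38 (n = 15). Both levels share the cell's library and scale, and this is 1 of 11 genes set against Dbh.

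Th (chr7:142892752-142931128, minus strand), the first step, was rare with or without Dbh. It was above 0 in 2 of 31 cells with Dbh (6.45%, 0.791 to 21.4) and in 4 of 34 without (11.8%, 3.30 to 27.5). The cells with Dbh were both chow cells, at 42.3 and 388 CPM. The cells without were a chow cell at 148 CPM and low-sodium cells at 0.403 (1 read), 18.8 and 51.1 CPM. All 6 also held Slc18a2 and Ddc, and Th, Ddc and Dbh were found together in 2 of 65 cells (3.08%, 0.375 to 10.7). The other 29 cells with Dbh were at 0 for Th. Both cells with Th and Dbh were among the 36 cells with at least 3 markers of a non-neuronal cell type over 10 CPM, described below. Without those 36, Th was above 0 in 0 of 15 cells with Dbh and in 1 of 14 without.

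Slc18a2 (chr19:59260896-59296012, plus strand), which fills vesicles with amine, was found in most cells of both kinds and had the higher mean with Dbh in both diets. It was above 0 in 19 of 31 cells with Dbh (61.3%, 42.2 to 78.2) and in 20 of 34 without (58.8%, 40.7 to 75.4), and the intervals overlap. By diet the shares went opposite ways. Chow gave 11 of 16 cells with Dbh (68.8%) and 10 of 17 without (58.8%). Low sodium gave 8 of 15 with Dbh (53.3%) and 10 of 17 without (58.8%). In chow the Slc18a2 level ran from 0 through 4.75 to 6.43 with Dbh and from 0 through 1.73 to 6.05 without. In low sodium it ran from 0 through 4.61 to 6.97 with Dbh and from 0 through 2.92 to 6.58 without. Medians were higher with Dbh in both diets, and all 4 ranges overlap. The mean difference was 1.12 in chow and 0.60 in low sodium, against SDs over cells of up to 3.09. With both genes counted as present only above 10 CPM, Slc18a2 was found in 18 of 30 cells with Dbh (60%) and in 14 of 35 without (40%). In cells thinned to 50000 reads the shares were 14 of 27 (51.9%) and 13 of 38 (34.2%). In cells of at least 300000 reads they were 63.6% and 64.3%. By presence above 0, 19 of 65 cells held Dbh and Slc18a2, 20 Slc18a2 alone, 12 Dbh alone and 14 neither.

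Gch1, the first enzyme of cofactor synthesis, was above 0 in 17 of 31 cells with Dbh (54.8%, 36.0 to 72.7) and in 16 of 34 without (47.1%, 29.8 to 64.9). In chow its mean was 3.93 ± 3.25 with Dbh and 2.39 ± 2.98 without. In low sodium it was 2.31 ± 2.91 with and 1.83 ± 2.61 without. Every group ranged from 0 to over 6, so the groups overlap. Cyb561, the vesicle cytochrome that supplies electrons to Dbh, was found in all 65 cells. Its chow mean was 8.22 ± 1.09 with Dbh, against 7.50 ± 1.31 without. The low-sodium means were 7.68 ± 1.23 and 7.47 ± 1.44. The means of the later cofactor enzymes differed by less than the SD over cells in each group of the same diet. Spr differed by 0.63 in chow and 0.04 in low sodium, Pts by 0.07 and -0.46, Qdpr by -0.11 and 0.13, and Pcbd1 by 0.27 and 0.56. Slc18a1, the VMAT1 transporter, was above 0 in 10 cells with Dbh and 14 without, and the dopamine transporter Slc6a3 in 3 and 4.

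To read such differences against the rest of the transcriptome, a size rule was used. A gene was past it when the means differed by at least 1 (log2 scale) the same way in both diets. Of 10859 genes compared (above 0 in at least 16 cells, Dbh left out), 0.553% were past it with the higher mean in cells with Dbh and 1.84% with the lower. Of the catecholamine list of 16 genes, 11 besides Dbh were measured and 9 compared. None of the 9 was past the rule, 5 had the higher mean in both diets (Slc18a2, Gch1, Spr, Pcbd1 and Cyb561) and none the lower. Of all genes compared, 18.5% had the higher mean in both diets and 33.4% the lower, at any size. The median difference of the 9 was 0.37 in chow and 0.13 in low sodium, beside -0.04 and -0.22 over all genes compared. Without the 7 cells with few genes, Slc18a2 (1.24 and 1.38) and Gch1 (1.31 and 1.06) were past the rule in chow and low sodium. Without the 9 cells with high CPM sums they were past it as well, at 1.12 and 1.59 and at 1.53 and 1.30. These were the only 2 of 11 other settings in which Slc18a2 or Gch1 was past the rule. Neither was past it after thinning or with Dbh above 10 CPM set against 0. Of the list, Pnmt, Slc6a2, Gchfr and Moxd1 were not analysed here.

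**Figure D2:**
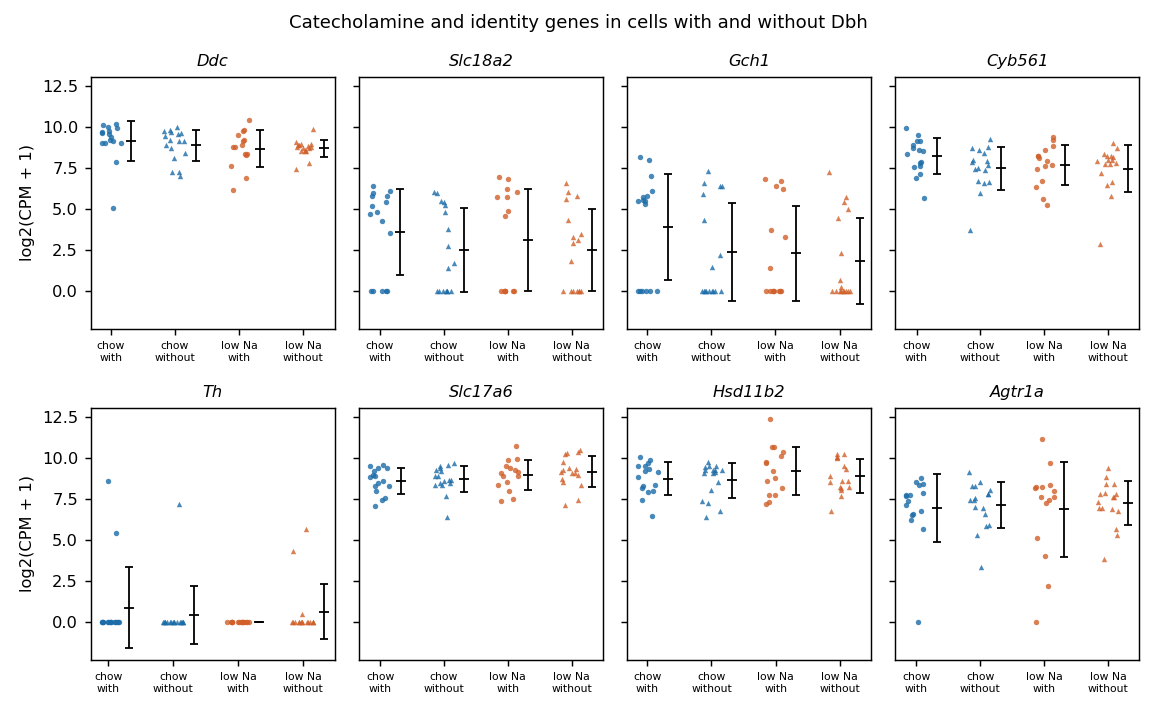
Level, log2(CPM + 1), of 8 catecholamine and identity genes in each cell (points; circles with Dbh, triangles without), by diet, with the mean and SD over cells to the right of the points. Ddc, Cyb561, Slc17a6 and Hsd11b2 are high in all 4 groups, Slc18a2 and Gch1 are at 0 in many cells of each group, and Th is above 0 in 6 cells.

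The genes that identify HSD2 neurons were detected in both kinds of cell. None of 8 identity genes compared was past the size rule. Of all genes compared, only 2.39% were past it, so this count says little about identity genes. Hsd11b2 was above 0 in all 65 cells, from 6.45 through 9.00 to 10.03 in chow with Dbh and from 6.42 through 9.15 to 9.77 without. In low sodium it ran from 7.21 through 9.19 to 12.35 with Dbh and from 6.75 through 8.59 to 10.26 without. The ranges overlap in both diets, and 2 chow and 4 low-sodium cells with Dbh lay above the highest cell without it. All 4 of these low-sodium cells had CPM sums over 1200000, and the highest low-sodium cell without Dbh did not. The mineralocorticoid receptor Nr3c2 was found in 29 of 31 cells with Dbh and 33 of 34 without, with differences of -0.09 in chow and -0.94 in low sodium. The angiotensin receptor Agtr1a was found in 29 and 34 cells, with differences of -0.17 and -0.39. The glutamate transporter Slc17a6 was in all cells and differed by -0.13 and -0.19.

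The glucocorticoid receptor Nr3c1 was above 0 in 22 cells with Dbh and 21 without and had the higher mean with Dbh in both diets, by 0.86 and 0.71. The peptide gene Cartpt differed in opposite directions, by 1.32 in chow and -0.40 in low sodium. The aldosterone-induced kinase Sgk1 was above 0 in 14 cells of each kind.

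Among 21 noradrenergic and hindbrain transcription factors compared, 1 was past the size rule, with the lower mean, beside 1.84% of all genes. This was Maf, a basic leucine zipper factor, above 0 in 10 cells with Dbh and 18 without. Its chow mean was 1.13 ± 1.84 with Dbh and 2.80 ± 2.57 without, and its low-sodium mean 0.80 ± 1.58 with and 2.12 ± 2.64 without. Every group had cells at 0. Maf was past the rule in 6 of 11 other settings. Without the cells with high CPM sums it differed by -1.66 in chow and -0.92 in low sodium, and without those with markers of other cells, where too few cells held it to be compared, by -0.01 and -1.79. Tfap2b, an AP-2 factor known from the development of noradrenergic neurons, pointed the other way, in 16 cells with Dbh and 11 without, by 1.52 in chow and 0.80 in low sodium. Without the cells with few genes Tfap2b was past the rule, at 1.53 and 1.20, and it was past it in 2 of the 11 settings. The zinc finger factor Insm1 differed by 1.02 and 0.68, and the zinc finger homeobox gene Zfhx4 by -0.73 and -1.04. Over the list, 7 of 21 had the higher mean in both diets and 6 the lower, beside 18.5% and 33.4% of all genes, and the median differences were 0.08 and -0.03. The Hox list gave none of 14 past the rule, beside 2.39% of all genes. Hoxb7 was higher by 0.66 and 1.83, and Hoxa2 differed by -0.98 and -1.30.

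Over all genes, the diets gave largely different genes at this size. In chow 795 genes (7.32%) had a mean higher by at least 1 in cells with Dbh, and in low sodium 544 (5.01%). Of these, 60 were shared, which is 7.55% of the chow genes and 11.0% of the low-sodium genes. With the lower mean there were 923 genes (8.5%) in chow and 1844 (17%) in low sodium, of which 200 were shared, 21.7% of the chow genes and 10.8% of the low-sodium genes. Another 156 genes (1.44%) were higher by at least 1 in chow and lower by at least 1 in low sodium, and 53 (0.488%) the reverse. The same direction at any size was found for 51.9% of genes.

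The excess of genes with the lower mean moved with cells in which few genes were detected. Without the 7 such cells, 6 of which held Dbh, 192 genes were past the rule with the higher mean and 112 with the lower, in place of 60 and 200. Of the 60 and the 200, 48 and 85 were again past it. Of the 37 named genes past the rule, 6 were then no longer past it, all with the lower mean (Kcnk2, Kcnf1, Hcn4, Pcdh9, Cdh8 and Zdhhc21). None of the 10859 genes separated the cells with Dbh from those without, since for every gene the ranges overlapped. Of the 260 genes past the rule, none had a difference over the SD in all 4 groups of cells.

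**Figure D3:**
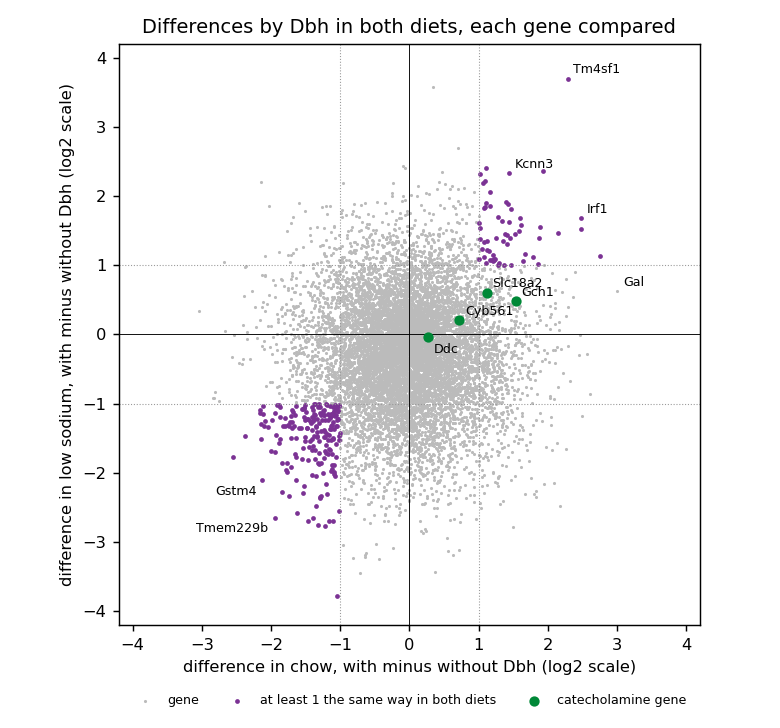
Difference of mean log2(CPM + 1), cells with Dbh minus cells without, in chow (horizontal) and low sodium (vertical) for each of 10859 genes compared. Purple points are the 260 past the size rule, 60 at upper right and 200 at lower left, and the 4 green catecholamine genes lie inside the dotted lines at 1 in at least 1 diet.

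The 12 genes with the highest smaller difference were Tm4sf1, P4ha3, Irf1, Kcnip4, H2-D1, Sorcs1, Errfi1, Mamld1, Dhrs3, Tmem26, Kcnn3 and Arhgef25. For most of them the kinds of cell differed in how many cells were above 0. Tm4sf1, a tetraspanin-like membrane protein (chr3:57285611-57301988, minus strand), was above 0 in 21 of 31 cells with Dbh (67.7%, 48.6 to 83.3) and in 11 of 34 without (32.4%, 17.4 to 50.5). In chow it ran from 0 through 5.81 to 8.80 with Dbh and from 0 through 0 to 8.34 without. The low-sodium cells ran from 0 through 5.51 to 9.26 with Dbh and from 0 through 0 to 7.13 without. The middle cell was at 0 in both groups without Dbh and above 5 in both groups with it, while the upper ends overlap. The differences of means were 2.29 and 3.70, the latter over the SD in both low-sodium groups (3.48 and 1.83).

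Irf1, a transcription factor of the interferon response, was above 0 in 21 cells with Dbh and 14 without, and its mean was higher by 2.48 in chow and 1.68 in low sodium. H2-D1, a class I histocompatibility gene, differed by 1.62 and 1.58, and reads of its near-identical family members may be split among them. Errfi1, an inhibitor of EGF receptor signalling, was above 0 in 15 of 16 chow cells with Dbh and 8 of 17 without. The low-sodium counts were 8 of 15 and 5 of 17. Dhrs3, a retinaldehyde reductase, had chow means of 5.02 ± 2.29 with Dbh and 2.87 ± 3.20 without, and low-sodium means of 2.36 ± 2.95 and 0.90 ± 1.95. P4ha3, a collagen prolyl hydroxylase subunit, was above 0 in 17 cells with Dbh and 10 without.

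Kcnip4, a subunit of A-type potassium channels, was above 0 in all 31 cells with Dbh and in 28 of 34 without (82.4%, 65.5 to 93.2). Its lowest level was 5.30 in chow and 4.63 in low sodium with Dbh, and 0 in both groups without. The chow medians were 6.44 with Dbh and 5.81 without, and the low-sodium medians 7.52 and 6.62. They lay closer than the means, which differed by 1.60 and 1.68. Kcnn3, the SK3 calcium-activated potassium channel, was above 0 in 25 cells with Dbh (80.6%, 62.5 to 92.5) and 16 without (47.1%, 29.8 to 64.9). It differed by 1.44 and 2.33. Sorcs1, a sorting receptor of neurons, was in 25 and 19 cells, and differed by 1.89 and 1.56.

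The 12 genes with the lowest were Gstm4, Tmem229b, Plk2, Garem, Aldh2, Ankrd16, Tnfrsf19, Cd151, Ppt2, Bcas3, Clcn2 and Zdhhc21. Gstm4, a glutathione transferase with close family members among which reads may be split, was above 0 in 6 of 31 cells with Dbh (19.4%, 7.45 to 37.5) and 19 of 34 without (55.9%, 37.9 to 72.8). Its differences were -2.13 and -2.11. Tmem229b, a membrane protein, was in 21 cells with Dbh (67.7%, 48.6 to 83.3) and 31 without (91.2%, 76.3 to 98.1). In chow it ran from 0 through 4.29 to 6.64 with Dbh and from 0 through 5.69 to 7.47 without. The low-sodium cells ran from 0 through 2.43 to 7.70 with Dbh and from 0 through 6.21 to 8.05 without. The middle cell was lower with Dbh in both diets, within ranges that overlap.

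Aldh2, the mitochondrial aldehyde dehydrogenase, acts on aldehydes that include those from monoamine breakdown. It was above 0 in 18 cells with Dbh (58.1%, 39.1 to 75.5) and 30 without (88.2%, 72.5 to 96.7), with differences of -2.54 and -1.78. It was the 1 gene past the rule among 7 of monoamine breakdown, beside 1.84% of all genes past it with the lower mean. The monoamine oxidase Maoa differed by -0.36 and -0.46. Plk2, an activity-regulated kinase, was in 13 cells with Dbh and 23 without and differed by -1.84 and -1.86. Clcn2, a chloride channel, was in 13 and 24 cells. Cd151, a tetraspanin, and Bcas3 differed by -1.74 and -2.34 and by -1.94 and -1.70. With Tmem229b, these were the 3 of 37 named genes past the rule that stayed past it in all 11 other settings of that fit.

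**Figure D4:**
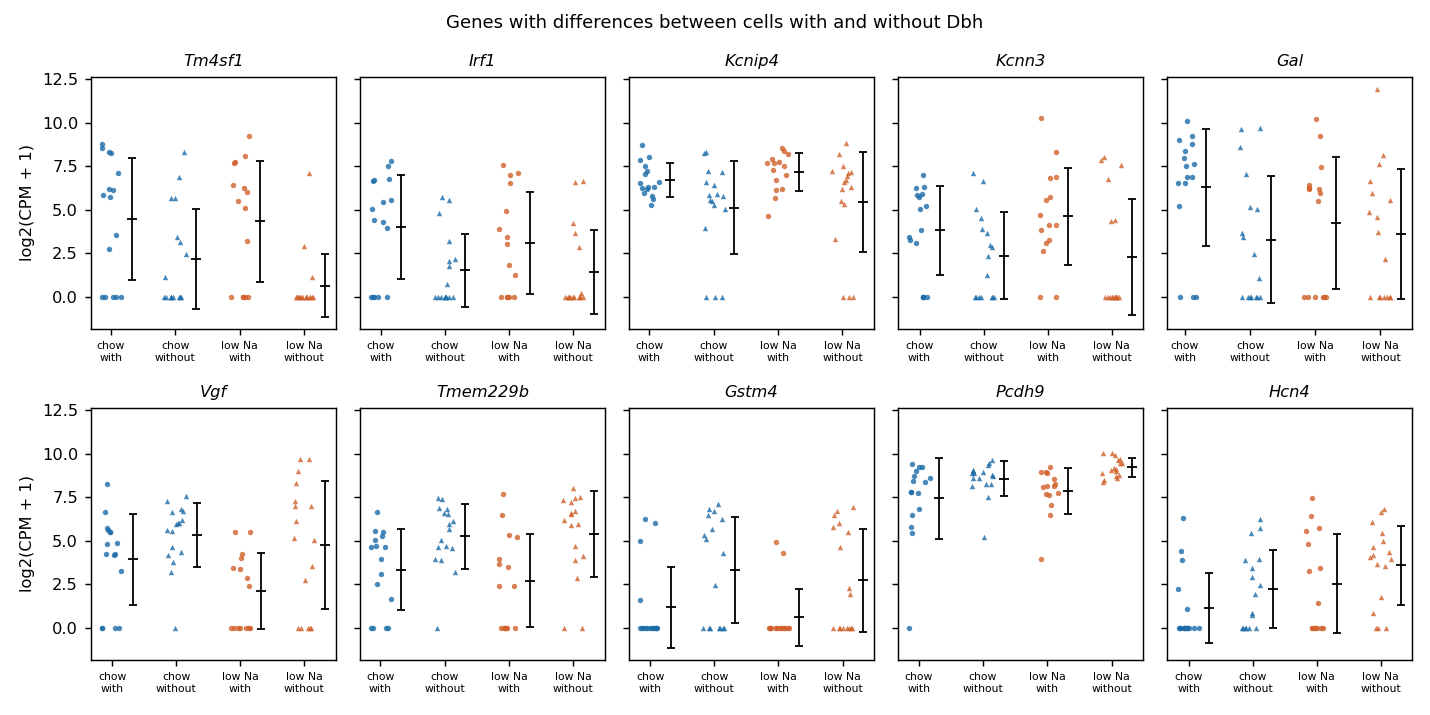
Level, log2(CPM + 1), of 10 genes in each cell (points; circles with Dbh, triangles without), by diet, with the mean and SD over cells to the right of the points. The groups overlap for every gene, and for Tm4sf1 and Gstm4 the kinds differ mainly in how many cells are above 0 (21 of 31 against 11 of 34, and 6 of 31 against 19 of 34).

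Peptide genes varied widely within each kind of cell. None of 12 neuropeptide genes compared was past the rule, beside 2.39% of all genes. Galanin (Gal) was the largest among those higher in both diets, above 0 in 22 cells with Dbh (71.0%, 52.0 to 85.8) and 20 without (58.8%, 40.7 to 75.4). In chow it ran from 0 through 7.21 to 10.13 with Dbh and from 0 through 2.48 to 9.70 without, and in low sodium from 0 through 5.98 to 10.21 and from 0 through 3.76 to 11.97. The difference was 3.01 in chow and 0.63 in low sodium, past the limit of 1 in chow only. Without the 7 cells with few genes Gal was past the rule, at 2.38 and 1.06, and it was past it in 4 of the 11 settings. The neurotrophin Bdnf was in 21 cells with Dbh and 30 without, and differed by -0.93 and -1.78.

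Of 14 granins and processing genes compared, 2 were past the rule, both with the lower mean in cells with Dbh. Of all genes compared, 1.84% were past it in that direction. Vgf, a secreted granin-like protein, was in 20 cells with Dbh (64.5%, 45.4 to 80.8) and 28 without (82.4%, 65.5 to 93.2). Its chow mean was 3.94 ± 2.60 with Dbh, against 5.33 ± 1.85 without, and its low-sodium mean 2.09 ± 2.18, against 4.74 ± 3.68. Carboxypeptidase D (Cpd) differed by -1.4 and -1.51, and the prohormone convertase Pcsk1 by -0.86 and -1.18. Pcsk1n, the inhibitor of that convertase, differed by 0.73 and 0.34. Over the 14 genes, 5 had the higher mean in both diets and 4 the lower, beside 18.5% and 33.4% of all genes.

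Ion channel lists held few genes past the rule. Of all genes compared, 0.553% were past it with the higher mean and 1.84% with the lower, and no list was tested against these shares. The medians of these lists lay under zero in low sodium, where the median of all genes was -0.22. Averaged over the diets, the medians of the sodium, calcium and potassium channel lists were above zero, at 0.04, 0.16 and 0.03, without the cells with few genes, and that of all genes was then 0.03. Of 10 sodium channel genes, Scn3b, a beta subunit, was past it, higher by 1.21 and 1.15. The list's median was 0.21 in chow and -0.56 in low sodium. Of 44 potassium channel genes, 2 were past it in each direction, with Kcnk2, the two-pore channel TREK-1, at -1.48 and -1.35 and Kcnf1 at -1.02 and -2.55. Kcnf1 was past it in 6 of 11 other settings. Of 14 HCN and TRP channels, Hcn4, a pacemaker channel, was past it, above 0 in 13 cells with Dbh (41.9%, 24.5 to 60.9) and 25 without (73.5%, 55.6 to 87.1). It ran from 0 through 0 to 6.30 with Dbh and from 0 through 1.94 to 6.23 without in chow, and from 0 through 1.44 to 7.48 and from 0 through 4.06 to 6.84 in low sodium. Its differences of -1.10 and -1.04 lie just past the limit and within SDs of 2.01 to 2.82. Trpm2 differed by -0.82 and -2.14, and the list's median was -0.28 and -0.85. Of 17 calcium channel genes none was past the rule, with a median of 0.21 in chow and -0.52 in low sodium.

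Receptors and adhesion genes gave a similar picture of few members and wide spread. The shares of all genes past the rule were 0.553% with the higher mean and 1.84% with the lower. The somatostatin receptor Sstr1 was the 1 of 15 peptide and hormone receptors past the rule, higher by 1.17 and 2.06. None of 12 trophic factor receptors was past it, and Ntrk2, the BDNF receptor found in all 65 cells, differed by -0.95 and -0.82. Of 64 axon guidance and adhesion genes, 2 were past it in each direction. Sema3e, a secreted semaphorin, was higher by 1.87 and 1.4, and the ephrin receptor Ephb1 by 1.24 and 1.10. The protocadherin Pcdh9 differed by -1.13 and -1.36 and the cadherin Cdh8 by -1.14 and -1.03. Of 11 other settings, Ephb1 and Cdh8 were each past the rule in 5, Sema3e in 7 and Pcdh9 in 8, and the mean difference over the diets came down to 0.36 for Ephb1 and to -0.27 for Cdh8. Of 32 genes of synaptic vesicle release, Syt6, a synaptotagmin, was past it, higher by 1.64 and 1.07, and past it in 7 of 11 other settings. Glutamate receptors (19), GABA and glycine receptors (17), adrenergic receptors (2), immediate early genes (13), heat shock genes (11) and oxidative phosphorylation genes (42) had none past it. Of 1 acetylcholine receptor subunit, 2 transmitter identity genes and 1 dopamine or serotonin receptor compared, none was past it either. No measured member of the other monoamine synthesis list reached the 16 cells needed.

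**Figure D5:**
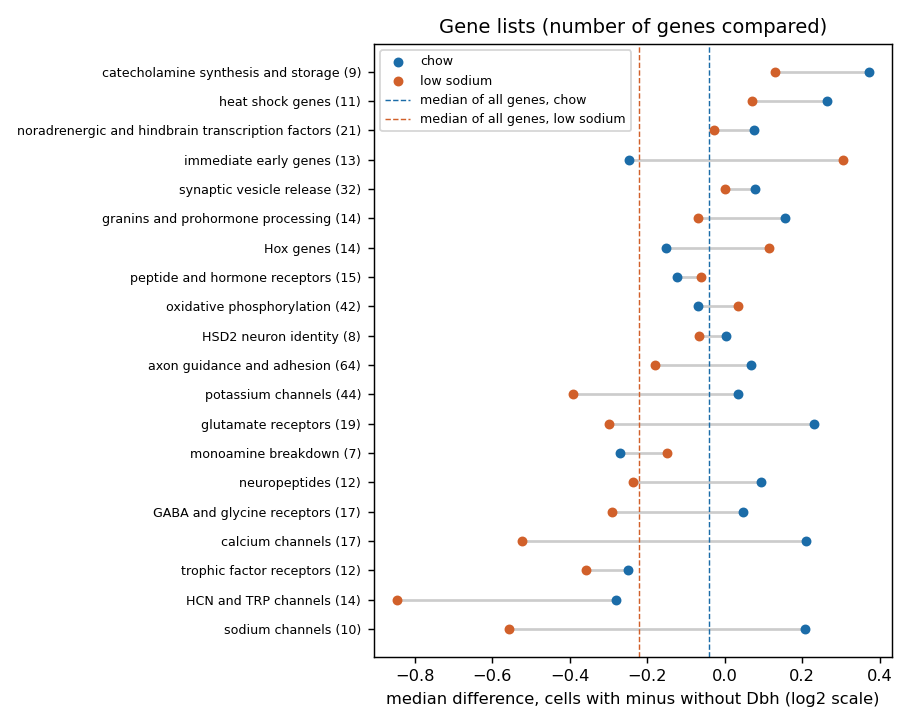
Median difference of mean log2(CPM + 1), cells with Dbh minus cells without, over the genes of each list (number compared in brackets), in chow (blue) and low sodium (orange), with dashed lines at the medians over all genes. The catecholamine list has the highest chow median, 0.37, and the HCN and TRP list the lowest low-sodium median, -0.85.

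Markers of other cells were present in both kinds. Each of the 65 cells had 3 or more of the 8 measured pan-neuronal markers over 10 CPM. At least 3 astrocyte markers were over it in 13 of 31 cells with Dbh and 17 of 34 without, and the summed level of the 10 markers was 193 to 3999 CPM with and 179 to 5008 without. At least 3 oligodendrocyte markers (7 measured) were over it in 11 and 14 cells, with sums of 0 to 15520 and 39.5 to 1396 CPM, ependymal markers (4) in 4 and 4, and endothelial or mural markers (5) in 3 and 1. The precursor list (1 measured), the GABA and glycine list (2) and the cholinergic list (2) had no such cell, since fewer than 3 genes were measured, and the microglia and serotonergic lists were not analysed here. The catecholamine marker list repeats genes described above. Of 5 transmitter genes found in too few cells to be compared, Gad1 and Gad2, which make GABA, were above 0 in 4 and 3 cells with Dbh and in 8 and 10 without. Chat, which makes acetylcholine, was in 5 and 7, its vesicle transporter Slc18a3 in 8 and 4, and the glutamate transporter Slc17a8 in 7 and 2. Of 8 astrocyte markers compared, Aldh1l1 was past the rule, in 4 cells with Dbh and 13 without (-1.38 and -1.15). Of all genes compared, 1.84% were past it with the lower mean. Of the 8, 3 had the higher mean in both diets and 3 the lower, beside 18.5% and 33.4% of all genes. The median of the 8 was -0.48 in chow and 0.11 in low sodium.

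Leaving out the 36 cells that held at least 3 markers of a non-neuronal list above 10 CPM left 15 cells with Dbh and 14 without. Then 177 of 7687 genes compared (2.30%) were past the rule with the higher mean and 362 (4.71%) with the lower. The main shares, of 10859 genes, were 0.553% and 1.84%. Of the 60 and the 200, 14 and 63 were again past it, and some others were no longer compared. Of the 37 named genes past the rule, 18 were still above 0 in at least 16 of the cells left, and 10 of those 18 were past it. Kcnip4 then differed by 1.53 in chow and 0.47 in low sodium and Aldh2 by -0.86 and -2.16, while Tm4sf1, with too few cells to be compared, differed by 2.59 and 4.2. The part of these cells, or of depth, in any single difference was not tested.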

How the data were processed

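The authors deposited log2(CPM + 1) per gene and cell for 65 cells. Per the submitters' processing notes, reads were handled with HISAT2 2.0.5, featureCounts 1.4.6, SAMtools 0.1.19, Picard 2.5.0 and bcl2fastq, and the builds named are mm10 and GRCm38. Their settings and the total for scaling were not given in the sources used here. CPM were recovered by undoing the deposited log2. In each cell, 100% of CPM up to 20 steps were whole multiples of the smallest step within 0.1 steps, which was taken as 1 read; cells held 50078 to 5319462 reads. Of 12015 lines, 121 shared 60 names and 19 carried serial numbers, and these were left out of comparisons.

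Cells were grouped by the diet label and by Dbh above 0 (over 1e-06 CPM). For each gene above 0 in at least 16 cells, the mean log2(CPM + 1) of cells without Dbh was subtracted from that of cells with Dbh within each diet. The size of differences of low genes, and of genes at 0 in many cells, depends on the pseudocount of 1 CPM. A gene was past the size rule at 1 or more the same way in both diets. Named were the catecholamine and identity genes, transcription factors over 0.5 in both diets, the 12 highest and 12 lowest genes by the smaller difference (predicted and unnamed models, and names that are accession numbers, left out) and up to 4 members of each other list. Aldh1l1 and the uncompared transmitter genes were chosen after their values were seen. The members of the split, the 25 gene lists and the 11 marker lists were chosen with earlier results of these data known. Settings tried were other pseudocounts, filters, scaling, thinning, limits for Dbh and sets of cells. The comparison was tried on simulated data, only for genes found in nearly all cells. That trial did not cover genes at 0 in many cells. Not every gene chosen in this way is reported here. Python 3.11.15, numpy 2.4.6, pandas 2.3.3, scipy 1.17.1 and matplotlib 3.10.9 were used. Positions are from GENCODE on GRCm38 and start regions from RefSeq.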

Additional observations from a re-analysis of the deposited data

How the results depend on the processing

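The counts of genes past the size rule, 60 with the higher and 200 with the lower mean in cells with Dbh, depended on the processing. They were 190 and 664 with a pseudocount of 0.1 CPM, and 1 and 6 with 10 CPM. Thinning every cell to 50000 reads gave 122 and 252, of which 35 and 90 were among the main genes. Leaving out the 7 cells with few genes gave 192 and 112, the 9 cells with high CPM sums 96 and 221, and the 36 cells with markers of other cell types 177 and 362. The number of genes compared fell from 10859 to 9291 after thinning and to 7687 without the 36 cells. With a difference in shares of cells of at least 25 percentage points in place of the mean, 6 and 65 genes passed. The other filters, the median of ratios scaling and a limit of 10 CPM for Dbh kept the counts at 45 to 66 and 165 to 203. Without the 3 cells with 1 to 3 reads of Dbh, an alternative chosen after seeing the data, they were 89 and 187. No gene past the rule passed it in the opposite direction in any setting, which its choice from the same cells made likely. The share of cells without Dbh that held Slc18a2 was 40% with a limit of 10 CPM and 34.2% after thinning, against 58.8% above 0; the cause was not tested beyond the change in limit and depth. Of the 37 named genes past the rule, all 37 kept their sign in the 11 settings. Of the 75 not past it, 56 did. The 37 were chosen for differences of at least 1 in both diets of these same cells. Keeping the sign was therefore likely from the start and is no support. The filters on how many cells hold a gene leave its difference unchanged. Of the 37, those that stayed past the rule numbered 6 with the 10 CPM pseudocount and 31 without the cells with few genes. After thinning the number was 27 of 33 compared, and without the cells with high sums 30 of 36. Without those with markers of other cells it was 10 of 18. Hcn4 was past it in none of these 5, and its mean difference lay between -2.02 and -0.36 over the 11 settings. No paired analysis was possible because the neuron numbers in the labels name single cells and no result comes from a test. The limits are that each diet is 1 sample, that a single read stood for up to 16.1 CPM with Dbh and 7.35 CPM without, and that a transcript at 0 can have been missed.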
